A study of Mus musculus with 16 samples.

Results

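The proteasome subunit and assembly genes were examined across early T cell stages of mice with and without a diabetogenic T cell receptor. Members were the genes whose symbol starts with Psma to Psmg and a digit, without Psmc3ip, which is not a proteasome gene, and without the interferon-induced catalytic genes Psmb8, Psmb9 and Psmb10. The rule used symbols and no measured value, and it found 46 of the 19531 genes that had a probe set of their own on the array. They were 8 alpha and 8 beta subunits of the core, 9 subunits of the base, 8 of the lid, 7 assembly chaperones, 5 activators or inhibitors and the Psme3-binding gene Psme3ip1. The study profiled sorted double-negative thymocytes of mice 4 weeks old on 16 microarrays, with 2 arrays in each of 8 groups. BDC mice carry the rearranged receptor genes of BDC2.5, a CD4 T cell clone that recognises pancreatic islets, while mice that lack it, written non-Tg, rearrange receptors of many specificities. Each genotype was studied on the NOD background, which develops autoimmune diabetes, and on B6g7, which is C57BL/6 with the MHC haplotype of NOD. The groups were BDC/NOD, BDC/B6g7, NOD and B6g7, each sorted as DN4 cells and as DN2-3 cells. DN4 cells lacked CD4, CD8, lineage markers, CD44 and CD25, DN2-3 cells lacked CD4, CD8 and lineage markers and carried CD25, and both were sorted after CD4 and CD8 cells had been depleted with complement. All non-Tg arrays came from females, while in each BDC group replicate 1 was male and replicate 2 female. The labels give neither the promoter of the transgene nor the number of animals behind a sample, so the p-values cover the spread between the samples alone, and that may be technical.

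The proteasome is the protease that degrades proteins marked with ubiquitin. Its barrel-shaped core is built of outer rings of alpha subunits, which gate the entrance, and inner rings of beta subunits, of which Psmb5, Psmb6 and Psmb7 carry the active sites. A regulatory particle caps the core. The base of the particle holds the Psmc ATPases that unfold the substrate, and its lid holds the enzyme that removes the ubiquitin chain. Dedicated chaperones put the alpha ring and the base together, and alternative caps of the Psme family open the core without ubiquitin. The subunits are made in fixed proportions, and in mammals the transcription factor Nfe2l1 raises many of their genes together when proteasome activity falls. Dividing cells, such as thymocytes that have passed beta selection, depend on proteasomes to remove cyclins.

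Most members were called in one direction in each of the averaged differences of transgene, stage and strain below, and their promoters were read for short motifs of factors that are known to act on proteasome genes. RefSeq windows on GRCm38.p6 were matched by symbol for 38 of the 46 genes, 4 of them with 2 windows. The 250 bases before the start that each window gives were searched on both strands. For Psmb6 the RefSeq gene record starts earlier, at 70525324, so the match marked in its window lies inside that record. The 6 sequences shown here carry the antioxidant response core TGACNNNGC, the type of site bound by Nfe2l1, or, for Psme4, the one member called higher in BDC DN4 cells, where 30 were called lower, the ETS core CCGGAAG. Capitals mark a match to either core on either strand, read 5′ to 3′ toward the start that the window gives.
Psmb5 (chr14:54617996-54618245, minus strand): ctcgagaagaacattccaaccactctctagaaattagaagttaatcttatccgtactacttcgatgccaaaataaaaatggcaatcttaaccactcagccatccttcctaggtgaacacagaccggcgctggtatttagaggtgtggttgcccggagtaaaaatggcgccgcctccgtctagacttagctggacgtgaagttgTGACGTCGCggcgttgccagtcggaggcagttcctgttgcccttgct
Psmb6 (chr11:70525107-70525356, plus strand): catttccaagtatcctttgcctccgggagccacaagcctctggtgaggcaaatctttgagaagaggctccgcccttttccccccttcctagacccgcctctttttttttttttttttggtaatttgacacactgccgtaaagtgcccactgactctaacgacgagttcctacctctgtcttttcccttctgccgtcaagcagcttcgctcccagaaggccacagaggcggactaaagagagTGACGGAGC
Psmc6 (chr14:45329574-45329823, plus strand): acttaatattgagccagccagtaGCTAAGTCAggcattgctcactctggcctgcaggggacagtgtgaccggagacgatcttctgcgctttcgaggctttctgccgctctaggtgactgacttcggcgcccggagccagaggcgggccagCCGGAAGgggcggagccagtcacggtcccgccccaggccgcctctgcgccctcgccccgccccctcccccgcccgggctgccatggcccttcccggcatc
Psmd12 (chr11:107479278-107479527, plus strand): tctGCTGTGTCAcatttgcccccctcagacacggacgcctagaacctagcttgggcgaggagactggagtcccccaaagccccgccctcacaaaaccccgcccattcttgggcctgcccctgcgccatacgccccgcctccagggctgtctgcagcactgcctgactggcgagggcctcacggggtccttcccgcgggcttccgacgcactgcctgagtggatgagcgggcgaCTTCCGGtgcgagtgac
Psmd9 (chr5:123227940-123228189, plus strand): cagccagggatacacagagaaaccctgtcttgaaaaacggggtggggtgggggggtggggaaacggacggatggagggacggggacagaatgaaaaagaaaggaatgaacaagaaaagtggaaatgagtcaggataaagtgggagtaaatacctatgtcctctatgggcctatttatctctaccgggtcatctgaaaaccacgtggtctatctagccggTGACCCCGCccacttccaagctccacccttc
Psme4 (chr11:30771525-30771774, plus strand): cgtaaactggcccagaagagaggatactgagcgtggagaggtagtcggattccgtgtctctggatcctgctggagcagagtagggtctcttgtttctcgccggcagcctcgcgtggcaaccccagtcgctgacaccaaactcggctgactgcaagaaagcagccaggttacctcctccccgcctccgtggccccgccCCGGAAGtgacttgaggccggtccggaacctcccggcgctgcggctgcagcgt
Psmb5 and Psmb6 are catalytic subunits, Psmc6 is an ATPase of the base, Psmd12 is a lid subunit, Psmd9 is a base chaperone and Psme4 is a nuclear cap. The antioxidant core was found in 5 of the members' 42 windows, 11.9%, against 10.2% of all 32851 windows, so its share was close to that of promoters at large. The CCAAT box, bound by the Nfy factors, was in 33.3% of the members' windows and in 33.8% of all windows. The ETS core was in 13 of 42 windows, 31%, against 6.91% of all windows, in those of Psma6, Psmc1, Psmc2, Psmc6, Psmd2, Psmd4, Psmd6, Psmd11, Psmd12, Psme3, Psme4 and Psmg1. The GC box GGGCGG was in 54.8% of the members' windows, against 32.7% of all, and the E-box CACGTG in 9.52%, against 6.02%. The antioxidant core of Psmd9 and the ETS core of Psme4 each overlapped a GC box, and the windows of Psmc6 and Psmd12 held both cores. All windows include those of genes not tested here, and no set matched for expression or base content was compared. Whether these shares are particular to proteasome genes was thus not tested. A match describes letters in these windows only and says nothing of whether a factor binds there.

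Values are log2 intensities of each gene's brightest probe set, and 44 of the 46 members reached the level at which a gene was tested, a highest group mean of 7.05. Psma8, the alpha subunit of testis, stayed below it, with 5.52 to 6.16 on BDC arrays and 5.46 to 6.05 on non-Tg arrays. Psmb11, the beta subunit of the cortical thymic epithelium, stayed below it too, with 6.29 to 6.67 on BDC arrays and 6.31 to 6.81 on non-Tg arrays. The table holds no detection calls, so these levels cannot be told from background. Psmg3 reached the level of testing only in BDC/NOD DN2-3, with a mean of 7.23. Its means in the other groups were 6.76 to 7.05, so its values and its part in the counts below lie near that level. Psma3, Psma5, Psmb3, Psmc1 and Psmd2 had 2 or 3 probe sets, and Psme2b lay on a probe set shared with Psme2 that was not used. Whether these probe sets read the gene or a processed copy of it was not tested; the strain difference of Psmb3 was -0.016 on the brightest probe set, which was used, and 0.10 on the other. The CD25 gate showed in the transcripts: Il2ra, which encodes CD25, was at 9.09 to 10.56 on DN4 arrays, against 12.32 to 13.30 on DN2-3 arrays, and Cd3e was at 12.50 to 12.96 throughout. Transcript of the sorted-out coreceptor chain Cd8b1 was at 9.10 to 9.23 in BDC/NOD DN4 and 7.97 to 8.07 in BDC/B6g7 DN4, against 9.36 to 9.52 in NOD DN4 and 11.07 to 11.09 in B6g7 DN4. Of the 12 genes of early T cell stages, Il2ra and Cd8b1 included, 9 were called lower and 3 higher in BDC than in non-Tg DN4 cells. Of all genes, 30.8% were lower and 28.7% higher. Kit, a receptor of early progenitors, had 9.02 and 8.83 in BDC/NOD and 9.75 and 9.46 in BDC/B6g7, against 8.56 and 8.50 in NOD and 8.16 and 8.48 in B6g7, and on DN2-3 arrays it was at 9.63 to 10.29. Rag1, of the recombinase, had 9.97 and 10.08 in BDC/NOD and 7.04 and 6.49 in BDC/B6g7, against 10.98 and 11.19 in NOD and 9.91 and 10.49 in B6g7, and Ptcra, the pre-T cell receptor chain, had 8.15 and 8.20 in BDC/NOD and 6.80 and 6.62 in BDC/B6g7, against 8.99 and 9.03 in NOD and 8.19 and 8.15 in B6g7. Kit was thus highest, and Rag1 and Ptcra lowest, in the DN4 group where the proteasome genes were lowest, BDC/B6g7. Other genes of the list differed from Kit. Cd44 was lowest there, with a mean of 6.18, against 6.39 in BDC/NOD, 6.88 in NOD and 6.58 in B6g7, all below 7.05. Il2ra had 9.66 there, against 9.10 in BDC/NOD, 10.07 in NOD and 10.38 in B6g7. Cd3d was highest there, as Kit was, with 9.69, against 9.44 in BDC/NOD, 9.35 in NOD and 8.94 in B6g7. The part of these stage genes in the proteasome differences was not tested. The replicate arrays of NOD DN2-3 correlated at r = 0.960 over the genes tested, below the 0.989 to 0.995 of the other pairs, and Psmb5 differed between them by 0.85. Without NOD DN2-3 replicate 1 the members called in the averaged comparisons numbered 35, 35, 42, 30 and 34, in place of 31 for BDC against non-Tg at DN4, 33 at DN2-3, 39 for stage in BDC cells, 34 for stage in non-Tg cells and 26 for strain. These are bulk samples, so fewer cells of a kind and less RNA per cell cannot be told apart.

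Proteasome genes stood lowest in BDC/B6g7 DN4 cells and, for most members, highest in NOD DN4 or BDC/B6g7 DN2-3 cells. Their mean over all members was 9.95 and 10.01 on the arrays of BDC/NOD DN4 and 9.52 and 9.52 on those of BDC/B6g7 DN4, against 10.16 and 10.21 in NOD DN4 and 9.99 and 10.04 in B6g7 DN4. At DN2-3 it was 10.12 and 10.12 in BDC/NOD and 10.12 and 10.19 in BDC/B6g7, against 9.69 and 9.86 in NOD and 9.79 and 9.78 in B6g7. At DN4 every non-Tg B6g7 array lay above both BDC/B6g7 arrays by over 0.4, and at DN2-3 every BDC array lay above every non-Tg array. The group with the lowest mean was BDC/B6g7 DN4 for 34 of the 44 members, where 30.8% of all 10689 genes had it, NOD DN2-3 for 6, BDC/NOD DN4 for 2 and B6g7 DN2-3 for 2. For 25 members both BDC/B6g7 DN4 arrays lay below the other 14 arrays, as they did for 19.9% of all genes. The highest mean was in NOD DN4 for 19 members, in BDC/B6g7 DN2-3 for 14, in B6g7 DN4 for 6, in BDC/NOD DN2-3 for 3 and in BDC/NOD DN4 for 2. Psmg3, tested through BDC/NOD DN2-3 alone, was among the 3 of that group. Shares of all genes were not counted for the highest mean, nor for the lowest mean in groups other than BDC/B6g7 DN4. Those counts therefore cannot be set against genes at large. The 8 group means of a member spanned over 0.5 for 34 members and over 1 for 7, which were Psmg2, Psmg4, Psmg1, Psmd7, Psmd1, Psmb4 and Psmd6. Of those tested, Psme3ip1, Psmd8 and Psma3 spanned least, with 0.29, 0.32 and 0.35. The plot of core, base, lid and assembly means shows NOD as the highest and BDC/B6g7 as the lowest DN4 group in all 4 kinds of gene, while BDC/NOD lay above B6g7 at DN4 in the base and below it in the other 3.

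**Figure D1:**
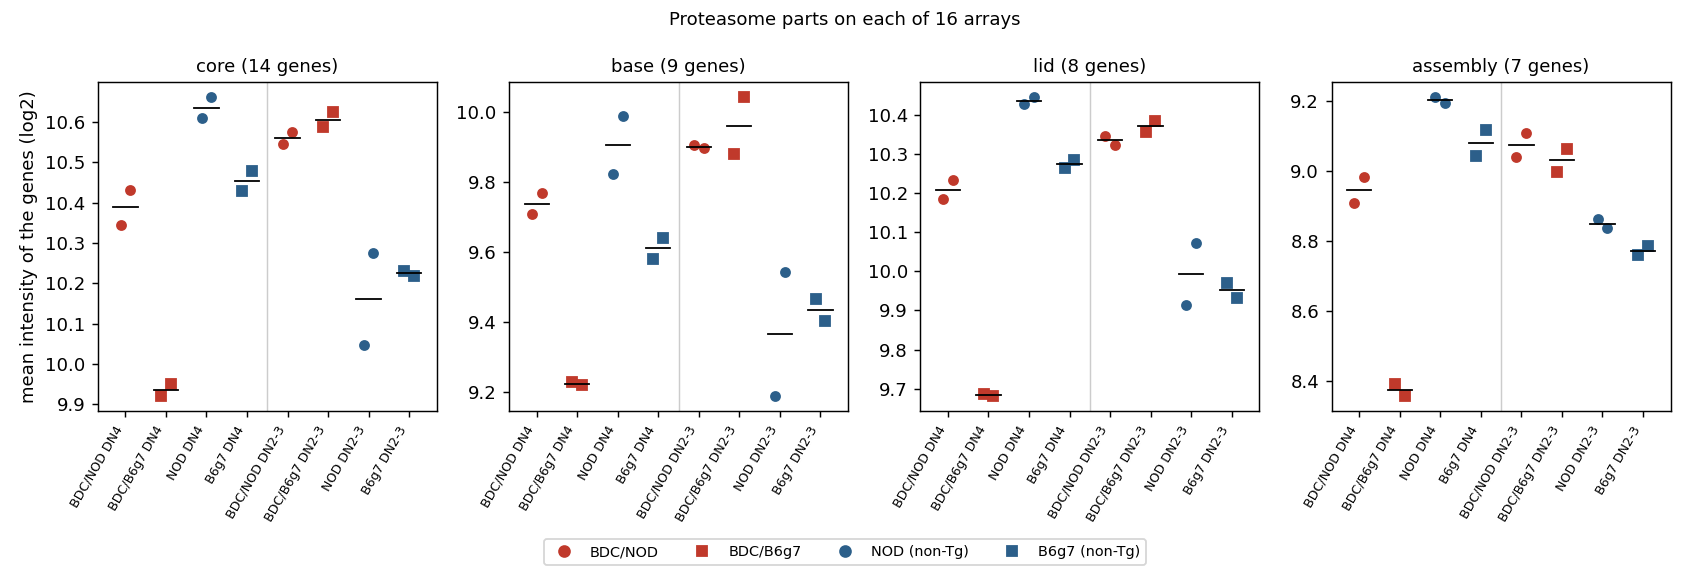
Mean log2 intensity of the tested core (14), base (9), lid (8) and assembly (7) genes on each of the 16 arrays; points are arrays, black lines group means of 2 arrays, and the grey line parts DN4 from DN2-3. The BDC/B6g7 DN4 arrays are lowest in the core, lid and assembly panels, while in the base panel NOD DN2-3 replicate 1, at 9.19, lies just below their 9.22 and 9.23.

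At DN4, proteasome genes were lower in BDC cells than in non-Tg cells, averaged over strains. By limma with Benjamini-Hochberg adjustment at 0.05, 30 of the 44 members were lower and 1 was higher, where 30.8% of all genes were lower and 28.7% higher. The median difference of the members was -0.36 on the log2 scale, beside -0.029 over all genes tested. The core alpha ring had 6 of 7 genes lower, the beta ring 6 of 7, the base 4 of 9, the lid 6 of 8 and the assembly chaperones 4 of 7. The lid had the lowest median difference, -0.54, beside -0.39 for the alpha ring, -0.38 for the beta ring, -0.37 for assembly and -0.26 for the base. Of the 31 calls, 6 passed a minimum fold of 1.5 as well.

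The largest differences at DN4 lay in the chaperones that assemble the alpha ring. Psmg2 had 9.73 and 9.82 in BDC/NOD and 8.89 and 8.81 in BDC/B6g7, against 10.34 and 10.19 in NOD and 10.35 and 10.22 in B6g7. All 4 BDC arrays were below all non-Tg arrays, and BDC/B6g7 was far below BDC/NOD. The difference was -0.97 ± 0.064 (SE, n = 2 arrays per group), with a limma adjusted p = 3.96e-08. Its partner Psmg1 had 9.48 and 9.68 in BDC/NOD and 8.96 and 8.88 in BDC/B6g7, against 10.13 and 9.95 in NOD and 10.14 and 10.08 in B6g7, and the BDC arrays again lay below all the others. Psmg1 differed by -0.82 ± 0.11 (SE; limma adjusted p = 3.51e-05), and Psmg4, of the second chaperone pair, by -0.80 ± 0.089 (SE; limma adjusted p = 4.71e-06). The base chaperone Psmd10 was also called lower, at -0.37, while Psmg3, Psmd5 and Psmd9 did not pass the test, with -0.15, -0.21 and -0.057. Psmg3 lay near the level of testing.

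In the lid, Psmd13 differed by -0.66 ± 0.057 (SE; limma adjusted p = 4.9e-07), Psmd7 by -0.66 ± 0.072 and Psmd14 by -0.58 ± 0.059. Psmd14 is the enzyme that cuts off the ubiquitin chain, and Psmd7 is the subunit it pairs with. Psmd12 and Psmd6 were called lower, at -0.54 and -0.54, on the log2 scale, while the lid genes Psmd8 and Psmd11 stood at -0.026 and 0.11 and did not pass. In the core, Psmb3, a structural beta subunit, differed by -0.60 ± 0.066 (SE; limma adjusted p = 4.55e-06), Psmb2 by -0.54 ± 0.059 and Psma1, of the alpha ring, by -0.50 ± 0.065. Psma3 and Psmb4 did not pass, with -0.13 and -0.074. In the base, the ATPase Psmc5 differed by -0.52 ± 0.079 and the scaffold subunit Psmd1 by -0.49 ± 0.10, with limma adjusted p = 7.84e-05 and 0.00113. Psmc1, Psmc3, Psmc4, Psmd2 and Psmd4 did not pass, with differences from -0.26 to -0.0078. For Psmc1 the choice of probe set matters: a second, dimmer probe set gave -0.48 where the one used gave -0.0078.

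The 3 catalytic subunits were all lower at DN4 in BDC cells. Psmb5, of the chymotrypsin-like site, had 11.24 and 11.41 in BDC/NOD and 10.84 and 10.93 in BDC/B6g7, against 11.52 and 11.74 in NOD and 11.38 and 11.28 in B6g7. Only BDC/B6g7 lay apart from the rest, since the BDC/NOD and B6g7 arrays overlapped. The difference was -0.37 ± 0.14 (SE, limma adjusted p = 0.0295). Psmb6, of the caspase-like site, had 9.73 and 9.77 in BDC/NOD and 9.29 and 9.06 in BDC/B6g7, against 9.95 and 10.01 in NOD and 9.59 and 9.82 in B6g7, and differed by -0.38 ± 0.071 (SE, limma adjusted p = 0.000452). One B6g7 array lay below the BDC/NOD arrays. Psmb7, of the trypsin-like site, had 10.28 and 10.31 in BDC/NOD and 9.64 and 9.70 in BDC/B6g7, against 10.57 and 10.53 in NOD and 10.36 and 10.39 in B6g7. Here the BDC arrays lay below every non-Tg array, with a difference of -0.48 ± 0.058 (SE, limma adjusted p = 1.05e-05). The plot of single genes by array shows these subunits beside members of the other kinds.

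**Figure D2:**
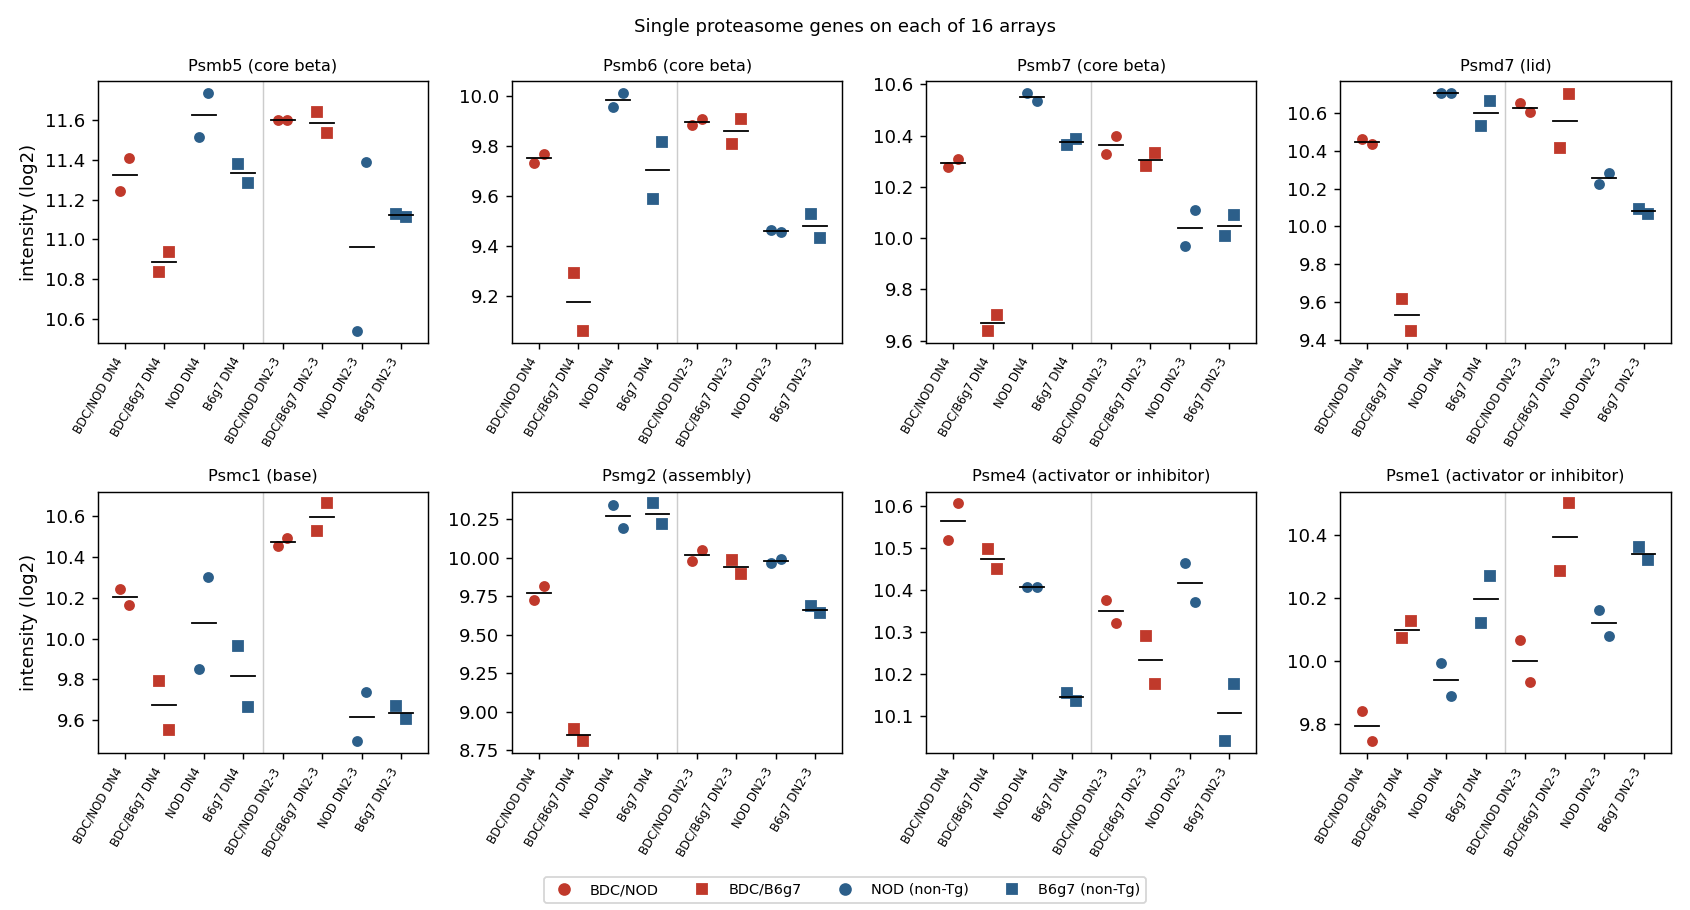
Log2 intensity of 8 single genes on each of the 16 arrays; points are arrays, black lines group means of 2 arrays, and axes differ between panels and do not start at 0. Psmb6, Psmb7, Psmd7 and Psmg2 are lowest on the BDC/B6g7 DN4 arrays, Psmb5 is lowest on 1 NOD DN2-3 array at 10.54, Psme4 is highest by group mean in the BDC DN4 groups, and Psme1 is lowest in BDC/NOD DN4 cells.

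Within NOD, 12 members were lower in BDC/NOD than in NOD at DN4 and 0 higher, where 14.8% and 10.6% of all genes were. Within B6g7, 29 were lower and 1 was higher, where 29.2% and 30.1% of all genes were. The median member differed by -0.23 in NOD and by -0.47 in B6g7. The NOD count depended on single arrays: it was 20 without either NOD DN2-3 array, 3 and 4 without NOD DN4 replicate 1 and 2, 2 and 7 without BDC/NOD DN4 replicate 1 and 2, 7 with sex as a term and 0 without the 4 male arrays. The test of the difference between the strains called 13 members, all less negative in NOD, where 9.2% of all genes were called in that direction. Psmg4 had the largest such difference, 0.99 ± 0.18 (SE, limma adjusted p = 0.00194), followed by Psmg2 at 0.94 ± 0.13, Psmd7 at 0.80 ± 0.14, Psmg1 at 0.73 ± 0.23 and Psmd14 at 0.62 ± 0.12. In the core Psmb3, Psma6, Psma1, Psmb7 and Psmb2 passed, with 0.51, 0.48, 0.45, 0.45 and 0.36, and in the lid Psmd6 and Psmd13 did too, with 0.44 and 0.38. The inhibitor Psmf1 was the last, with 0.36, and no gene of the base passed. Psmg4 illustrates it, with 9.30 and 9.24 in BDC/NOD and 8.56 and 8.42 in BDC/B6g7, against 9.70 and 9.45 in NOD and 9.86 and 9.71 in B6g7. Only the BDC/B6g7 arrays lay below 9 for this gene. Leaving out any 1 of the 8 DN4 arrays, of the 2 B6g7 DN2-3 arrays or of the 2 BDC/NOD DN2-3 arrays took the 13 to between 4 and 8, centring each array on its median to 5, and leaving out the 4 male arrays to 2.

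At DN2-3 the direction was the opposite: proteasome genes were higher in BDC cells than in non-Tg cells, averaged over strains. By limma, 33 of the 44 members were higher and 0 lower, where 29.8% of all genes were higher and 19.3% lower. The median was 0.33 for the members and 0.049 for all genes tested. All 9 base genes were higher, with a median of 0.50, together with 6 of 7 core alpha genes, 6 of 7 core beta genes, 7 of 8 lid genes and 3 of 7 assembly genes. The count was 19 without the 4 male arrays, when each BDC group is down to 1 array, and 6 with a minimum fold of 1.5. Psmc1, an ATPase of the base, had 10.45 and 10.49 in BDC/NOD and 10.53 and 10.66 in BDC/B6g7, against 9.50 and 9.74 in NOD and 9.67 and 9.61 in B6g7. Every BDC array lay over 0.7 above the highest non-Tg array. It differed by 0.90 ± 0.10 (SE, n = 2 arrays per group; limma adjusted p = 2.03e-05), a fold of 1.87. Psmb4, a structural beta subunit, had 10.86 and 10.79 in BDC/NOD and 10.88 and 11.05 in BDC/B6g7, against 9.49 and 10.26 in NOD and 10.41 and 10.25 in B6g7, and differed by 0.79 ± 0.13 (SE, limma adjusted p = 0.000383). The groups did not overlap, although NOD replicate 1 lay well below the other non-Tg arrays.

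In the base the scaffold Psmd1 was higher by 0.61 ± 0.10, the ATPase Psmc3 by 0.60 ± 0.12 and the ATPases Psmc4 and Psmc5 by 0.56 and 0.49. In the alpha ring Psma7 was higher by 0.78 ± 0.11 (SE, limma adjusted p = 9.08e-05) and Psma6 by 0.58 ± 0.075, and in the lid Psmd6 led with 0.68 ± 0.073 (SE, limma adjusted p = 1.2e-05). Psmd3, Psmd7 and Psmd11 of the lid followed with 0.45, 0.42 and 0.42. The chaperones changed less: Psmg1 was higher by 0.35, Psmd10 by 0.31 and Psmd9 by 0.24, while Psmg2 and Psmg4 did not pass, with 0.16 and 0.14. Psmb5 had 11.60 and 11.60 in BDC/NOD and 11.64 and 11.54 in BDC/B6g7, against 10.54 and 11.39 in NOD and 11.13 and 11.11 in B6g7, and was higher by 0.55 ± 0.14 (SE, limma adjusted p = 0.0047). Psmb6 had 9.88 and 9.91 in BDC/NOD and 9.81 and 9.91 in BDC/B6g7, against 9.46 and 9.46 in NOD and 9.53 and 9.43 in B6g7, and was higher by 0.41 ± 0.071 (SE, limma adjusted p = 0.00049). Psmb7 had 10.33 and 10.40 in BDC/NOD and 10.28 and 10.33 in BDC/B6g7, against 9.97 and 10.11 in NOD and 10.01 and 10.09 in B6g7, and was higher by 0.29 ± 0.058 (SE, limma adjusted p = 0.00127). For all 3 catalytic subunits the BDC arrays lay above the non-Tg arrays without overlap. Within strains, 24 members were higher in BDC/NOD than in NOD, where 21.5% of all genes were higher and 14.1% lower, and 28 in BDC/B6g7 than in B6g7, where 16.8% were higher and 12.5% lower, with 0 members lower in both strains. The NOD count was 12 and 14 without BDC/NOD DN2-3 replicate 1 and 2, 16 without NOD DN2-3 replicate 1 and 0 in a fit of the 4 NOD and BDC/NOD arrays of that stage alone. The B6g7 count was 16 and 11 without B6g7 DN2-3 replicate 1 and 2 and 13 without BDC/B6g7 DN2-3 replicate 2. The test of a difference between the strains called 0 members at DN2-3, with 2 of 44 at an unadjusted p under 0.05, where 0.327% of all genes were called higher and 0.823% lower; it called 10 without NOD DN2-3 replicate 2. Without the 4 male arrays the counts by strain were 2 in NOD and 7 in B6g7.

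The change of direction between the stages was tested directly as the transgene difference at DN4 minus that at DN2-3, averaged over strains. By limma, 40 of the 44 members had a lower transgene difference at DN4 and 1 a higher one, where 31.5% and 26.3% of all genes did. The median was -0.76, beside -0.039 over all genes. Every core gene (14 of 14) and base gene (9 of 9) passed, with 7 of 8 lid genes and 6 of 7 assembly genes. The largest terms were those of Psmd6, -1.22 ± 0.10 (SE, limma adjusted p = 5.82e-07), Psmg1, -1.18 ± 0.16, Psmg2, -1.12 ± 0.09, Psma7, -1.11 ± 0.15, Psmd1, -1.10 ± 0.15, and Psmd7, -1.08 ± 0.10. Psmd11, Psmg3 and Psme1 did not pass, with -0.32, -0.32 and -0.087. Psme4 was the 1 gene with a higher term, 0.21 ± 0.086 (SE, limma adjusted p = 0.0462), a call that was lost when each array was centred on its median. The term was called for 30 members in NOD, all lower, where 20.5% of all genes were lower and 12.9% higher, and for 37 in B6g7, all lower, where 27% were lower and 27.3% higher. The NOD count was 2 without the 4 male arrays. The stages came from different arrays, so both axes of the plot of transgene differences share no sample. In it the base genes lie at DN2-3 differences of 0.32 to 0.90, a range that the core genes Psmb4 and Psma7 and the lid gene Psmd6 share. The chaperones Psmg1, Psmg2 and Psmg4 lie at the bottom, with large DN4 differences, while Psmg3 did not pass at DN4.

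**Figure D3:**
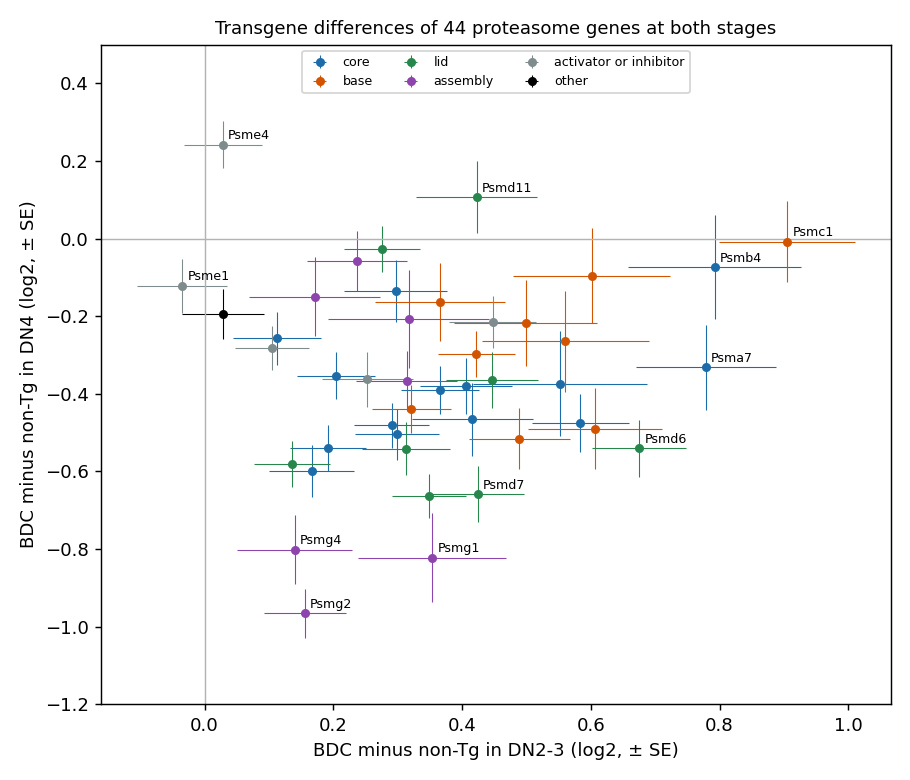
BDC minus non-Tg difference (log2) of each of the 44 tested genes at DN2-3 (horizontal) and at DN4 (vertical), averaged over strains; points are genes coloured by kind and lines are ± SE. Most genes lie in the lower right, Psmc1 is farthest right at 0.90 with a DN4 difference of -0.0078, and Psmg2 is lowest at -0.97.

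The same arrays were read along the stages. In BDC cells 38 members were lower in DN4 than in DN2-3 cells and 1 was higher, where 29.1% of all genes were lower and 22% higher. The median was -0.42, beside -0.041 over all genes. All 14 core and 9 base genes were lower, with 6 of 8 lid genes and 5 of 7 assembly genes. The count of 39 was 18 without the 4 male arrays and 7 with a minimum fold of 1.5. Psmb4 had 10.24 and 10.44 in BDC/NOD DN4 and 9.91 and 10.02 in BDC/B6g7 DN4, against 10.86 and 10.79 in BDC/NOD DN2-3 and 10.88 and 11.05 in BDC/B6g7 DN2-3, and differed by -0.75 ± 0.13 (SE, n = 2 arrays per group; limma adjusted p = 0.000457). Psmg2 had 9.73 and 9.82 in BDC/NOD DN4 and 8.89 and 8.81 in BDC/B6g7 DN4, against 9.98 and 10.05 in BDC/NOD DN2-3 and 9.99 and 9.89 in BDC/B6g7 DN2-3, and differed by -0.67 ± 0.064 (SE, limma adjusted p = 2.52e-06). In both genes the DN4 arrays lay below the DN2-3 arrays, with BDC/B6g7 DN4 at the bottom. Psmd1 and Psmc1 of the base were called lower, at -0.65 and -0.59, as were Psma6 of the core, at -0.64, and Psmd6 and Psmd7 of the lid, at -0.64 and -0.60 (log2 differences). The catalytic Psmb5, Psmb6 and Psmb7 were at -0.49, -0.41 and -0.35, all called lower. Psmd8, Psmd11, Psmd9, Psmg3 and Psme3ip1 did not pass, with -0.079, -0.073, -0.19, -0.26 and -0.15.

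The stage difference of BDC cells was smaller in NOD than in B6g7. In NOD, limma called 0 members, with 9 of 44 at an unadjusted p under 0.05 and a median of -0.14, where 3.41% of all genes were lower and 7.67% higher. That count was 4 without either NOD DN2-3 array, 15 with array weights and 11 in a fit of the 4 BDC/NOD arrays alone. In B6g7, 39 members were lower and 1 higher, with a median of -0.69, where 30.4% and 20.4% of all genes were, and 23 were called without the 4 male arrays. Tested directly, 21 members had a less negative stage difference in NOD and 0 a more negative one, where 12.2% and 3.55% of all genes did. Psmg2 led with 0.85 ± 0.13 (SE, limma adjusted p = 0.000727), followed by Psmd7 with 0.84 ± 0.14, Psmd1 with 0.83 ± 0.21, Psma5 with 0.83 ± 0.19 and the ATPase Psmc5 with 0.76 ± 0.16. The 21 calls became 33 without either NOD DN2-3 array, 12 without BDC/NOD DN4 replicate 2 and 0 without the 4 male arrays.

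Without the transgene the signs were the opposite. In non-Tg cells 34 members were higher in DN4 than in DN2-3 cells and 0 lower, where 26.6% of all genes were higher and 21.5% lower, and the median was 0.34, beside 0.029 over all genes. All 8 lid genes and all 7 alpha genes were higher, with 6 of 7 beta genes, 7 of 9 base genes and 4 of 7 assembly genes. Psmg1 had 10.13 and 9.95 in NOD DN4 and 10.14 and 10.08 in B6g7 DN4, against 9.79 and 9.21 in NOD DN2-3 and 9.21 and 9.15 in B6g7 DN2-3. All DN4 arrays were above all DN2-3 arrays, of which NOD replicate 1 was the highest. It differed by 0.73 ± 0.11 (SE, n = 2 arrays per group; limma adjusted p = 0.000162). Psmd6, of the lid, had 9.72 and 9.73 in NOD DN4 and 9.56 and 9.66 in B6g7 DN4, against 9.01 and 9.14 in NOD DN2-3 and 9.16 and 9.04 in B6g7 DN2-3, and differed by 0.58 ± 0.073 (SE, limma adjusted p = 2.93e-05). Psma7, the ATPase Psmc6 and Psmd13 were higher by 0.57, 0.52 and 0.51, and the catalytic Psmb5, Psmb6 and Psmb7 by 0.44, 0.37 and 0.42. Of these 34 calls, 1 passed a minimum fold of 1.5. By strain, 34 members were higher in NOD, with a median of 0.45 where 26.3% of all genes were higher and 12.3% lower, and 17 in B6g7, with a median of 0.22 where 17.8% were higher and 25% lower. The NOD count was 22 without NOD DN4 replicate 1, 20 without the 4 male arrays and 0 in a fit of the 4 NOD non-Tg arrays alone. The test of the difference between these strain values called 2 members, Psmb4 and Psmc4, both more positive in NOD, where 7.33% of all genes were called in that direction and 1.71% in the other. The adjusted p of Psmc4, which rounds to 0.05, lay at the threshold, and the share of members called was below that of all genes. Over all genes the median of that difference was 0.16, and quantile normalization of the arrays again gave 0 higher and 1 lower. The 2 calls became 18 without NOD DN2-3 replicate 2, 1 without NOD DN2-3 replicate 1 and 0 without any other array but B6g7 DN4 replicate 2.

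Between strains, proteasome genes were somewhat higher in NOD than in B6g7, averaged over genotype and stage, and this difference lay at DN4. The median was 0.54 in BDC DN4 and 0.20 in non-Tg DN4 cells, beside 0.053 and 0.13 over all genes. In BDC and non-Tg DN2-3 cells it was -0.023 and -0.009, beside 0.0079 and -0.036. For the average, limma called 24 members higher and 2 lower, where 26.8% of all genes were higher and 14.9% lower. The median of the average was 0.17, beside 0.037 over all genes. The 26 calls numbered 11 without the 4 male arrays, and 0 passed a minimum fold of 1.5. The base scaffold Psmd1 had 11.45 and 11.41 in BDC/NOD DN4, against 10.57 and 10.46 in BDC/B6g7 DN4. It had 11.63 and 11.72 in NOD DN4, against 11.13 and 11.37 in B6g7 DN4, and the averaged difference was 0.34 ± 0.074 (SE, limma adjusted p = 0.00251). At DN2-3 the strains overlapped, with 11.65 and 11.66 in BDC/NOD against 11.48 and 11.68 in BDC/B6g7, and 10.70 and 11.25 in NOD against 11.09 and 11.01 in B6g7. Psmg2 had 9.98 and 10.05 in BDC/NOD DN2-3, against 9.99 and 9.89 in BDC/B6g7 DN2-3, and 9.97 and 9.99 in NOD DN2-3, against 9.68 and 9.64 in B6g7 DN2-3, so the strains were apart there in non-Tg cells and overlapped in BDC cells. Over all groups Psmg2 was higher by 0.32 ± 0.045 (SE, limma adjusted p = 7.74e-05), Psmd7 of the lid by 0.32 ± 0.051, the ATPase Psmc2 by 0.31 ± 0.042 and Psmb2 of the core by 0.25 ± 0.042. The members lower in NOD were Psme1 and the structural beta subunit Psmb1, at -0.29 and -0.14 (log2 differences). Psmb1 had 9.34 and 9.41 in BDC/NOD DN2-3, against 9.69 and 9.79 in BDC/B6g7 DN2-3, and 9.31 and 9.25 in BDC/NOD DN4, against 9.30 and 9.26 in BDC/B6g7 DN4. In non-Tg cells it had 9.38 and 9.24 in NOD DN2-3, against 9.42 and 9.37 in B6g7 DN2-3, and 9.63 and 9.54 in NOD DN4, against 9.71 and 9.65 in B6g7 DN4. Its strains were apart in BDC DN2-3 cells and overlapped or lay close in the others.

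Of the 4 pairs of groups, BDC DN4 cells had the largest median strain difference. There 31 members were higher in NOD and 1 lower, with a median of 0.54 beside 0.053 over all genes, where 25.8% and 15.3% of all genes were. The NOD arrays lay above both B6g7 arrays for 41 members, which held for 45.5% of all genes. Psmg2 differed by 0.92 ± 0.09 (SE, n = 2 arrays per group; limma adjusted p = 4.14e-06), a fold of 1.9, Psmd1 by 0.91 ± 0.15, Psmd7 by 0.91 ± 0.10 and Psmg4 by 0.78 ± 0.13. Psma6 of the alpha ring, Psmd14 of the lid and Psmc2 of the base followed with 0.69, 0.68 and 0.65. Psmb6 and Psmb7 were higher by 0.57 and 0.62, and Psmb5, at 0.44, did not pass (limma adjusted p = 0.0848). The count of 32 calls was 15 without the 4 male arrays and 15 with a minimum fold of 1.5. In non-Tg DN4 cells 5 members were higher in NOD, where 14% of all genes were, and 0 lower, where 4.75% were: Psmb4, Psmd11, Psmc2, Psme2 and Psme4, by 0.61, 0.40, 0.30, 0.30 and 0.26. Leaving out any 1 of the 16 arrays gave between 0 and 18 calls there, and quantile normalization of the arrays again gave 0 higher and 2 lower. At DN2-3, Psme4 and Psmg2 were higher in NOD than in B6g7 without the transgene, where 5% of all genes were higher and 5.58% lower. Psme1 and Psmb1 were lower in BDC/NOD than in BDC/B6g7, where 5.66% of all genes were lower and 3.53% higher. The first pair was not called without the NOD DN2-3 replicate 1 array, nor without either B6g7 DN2-3, BDC/NOD DN2-3, BDC/NOD DN4 or BDC/B6g7 DN4 array. Without either NOD DN4 array 1 member was called, and without NOD DN2-3 replicate 2 there were 14. The second pair was not called without BDC/B6g7 DN2-3 replicate 2 or either BDC/NOD DN2-3 array. The map of differences shows all 44 members in these comparisons.

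**Figure D4:**
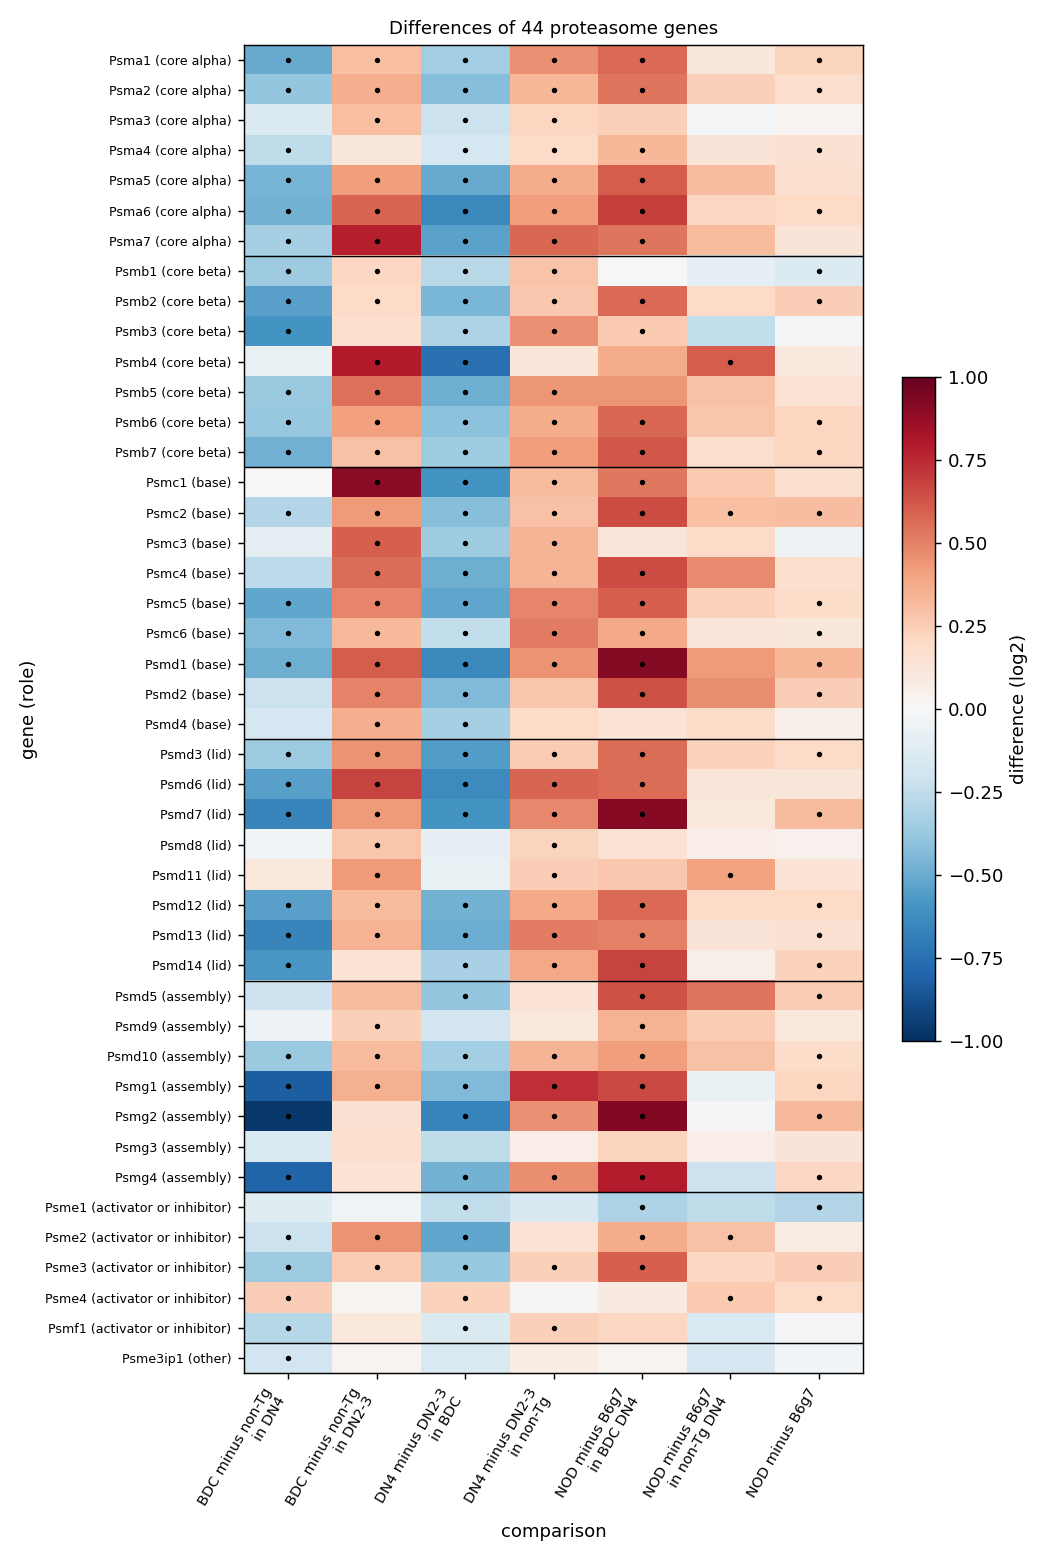
Log2 difference of each of the 44 tested genes in 7 comparisons, as colour (red higher, blue lower in the group named first); rows are grouped by kind, and a dot marks an adjusted p under 0.05 by limma. The columns for BDC minus non-Tg at DN4 and for stage in BDC are mostly blue, with 30 and 38 genes called lower, while those for DN2-3, for stage in non-Tg and for strain in BDC DN4 are mostly red, and Psme4 and Psme1 depart from their column in several places.

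Of the 5 activators and inhibitors, 3 were lower and 1 higher for the transgene at DN4, and 2 were higher at DN2-3. Psme4, a nuclear cap linked to the degradation of acetylated histones, had 10.52 and 10.61 in BDC/NOD and 10.50 and 10.45 in BDC/B6g7, against 10.41 and 10.41 in NOD and 10.16 and 10.14 in B6g7. All BDC arrays lay above all non-Tg arrays, and the difference was 0.24 ± 0.061 (SE, limma adjusted p = 0.00354), where 30 other members were lower. Psme4 was also higher at DN4 than at DN2-3 in BDC cells, by 0.23 ± 0.061 (SE, limma adjusted p = 0.0067), and was at 0.028 for the transgene at DN2-3, which did not pass. Psme3, the nuclear cap of the other family, moved with the subunits: it was at -0.36 for the transgene at DN4, 0.25 at DN2-3, -0.38 for stage in BDC cells and 0.24 in non-Tg cells, all called. Psme3ip1, which binds Psme3, was called lower in BDC cells at DN4, at -0.19, and did not pass for the transgene at DN2-3, for stage or for strain. Psmf1, which inhibits the core in the test tube, was at -0.28 for the transgene at DN4, -0.15 for stage in BDC cells and 0.24 in non-Tg cells, all called.

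Psme1 and Psme2 form the cytosolic cap that interferon induces, and they parted from each other. Psme1 had 9.84 and 9.75 in BDC/NOD and 10.07 and 10.13 in BDC/B6g7, against 9.99 and 9.89 in NOD and 10.12 and 10.27 in B6g7 at DN4. At DN2-3 it had 10.07 and 9.93 in BDC/NOD and 10.29 and 10.50 in BDC/B6g7, against 10.16 and 10.08 in NOD and 10.36 and 10.32 in B6g7. NOD arrays lay below B6g7 arrays of the same genotype and stage in all 4 pairs, and the averaged NOD difference was -0.29 ± 0.05 (SE, limma adjusted p = 0.000379). It was the one member lower in NOD among BDC DN4 cells, with -0.31 ± 0.10 (SE, limma adjusted p = 0.0244). Psme2 had 10.37 and 10.40 in BDC/NOD and 10.01 and 10.02 in BDC/B6g7, against 10.65 and 10.47 in NOD and 10.28 and 10.25 in B6g7 at DN4, and 10.64 and 10.56 in BDC/NOD and 10.72 and 10.94 in BDC/B6g7, against 10.15 and 10.24 in NOD and 10.33 and 10.36 in B6g7 at DN2-3. It was lowest in BDC/B6g7 DN4 and highest in BDC/B6g7 DN2-3, like many subunits. Its transgene difference was -0.21 ± 0.068 at DN4 and 0.45 ± 0.068 at DN2-3, its stage difference in BDC cells -0.52 ± 0.068, and its averaged strain difference of 0.072 did not pass (limma adjusted p = 0.256). The interferon-induced catalytic genes, left out of the members, were read beside them: Psmb8, Psmb9 and Psmb10 were at -0.11, -0.20 and -0.37 for the transgene at DN4, of which Psmb10 was called. They were at -0.23, -0.53 and -0.41 for stage in BDC cells, where all 3 were called lower, as were 29.1% of all genes. They did not follow the members elsewhere. For stage in non-Tg cells 0 of the 3 were called, at -0.0945 to -0.0147, where 34 members were called higher. For the transgene at DN2-3 they ranged from -0.053 to 0.25, and 1 was called higher, where 33 members and 29.8% of all genes were.

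The kinds of gene did not move by equal amounts. On each array the mean of the 9 base genes was set against that of the 7 assembly genes. The size of this gap depends on the probe sets, so only its change between arrays was read. The gap was 0.79 to 0.98 on the 8 BDC arrays, against 0.33 to 0.79 on the 8 non-Tg arrays, where NOD DN2-3 replicate 1 had the smallest. The genotypes overlapped at NOD DN4 replicate 2, with 0.79. Apart from that array, base genes stood higher relative to assembly genes in BDC cells at both stages, which was not put to a test. Second probe sets of the base genes Psmc1 and Psmd2 gave transgene differences of -0.48 and -0.32 at DN4, where those used gave -0.0078 and -0.22. At DN2-3 they gave 0.96 and 0.47, where those used gave 0.90 and 0.50. The gap was not computed with them, so its change at DN4 may depend on the probe sets too. The base stood likewise against the other kinds: base minus lid was -0.48 to -0.34 on BDC arrays and -0.72 to -0.46 on non-Tg arrays, and core minus base was 0.58 to 0.73 on BDC arrays and 0.67 to 0.86 on non-Tg arrays. The gap of core over lid showed no such split, with 0.16 to 0.27 on BDC arrays and 0.13 to 0.29 on non-Tg arrays. Other genes of the proteasome that the symbol rule does not reach were read as a comparison. The shares of all genes to set beside the counts of these lists were 30.8% lower and 28.7% higher for the transgene at DN4, 29.8% higher and 19.3% lower at DN2-3, and with stage 29.1% lower in BDC cells and 26.6% higher in non-Tg cells. Of 7 such genes 4 were lower and 1 higher for the transgene at DN4, 5 were higher at DN2-3, 5 were lower with stage in BDC cells and 4 higher in non-Tg cells. The proteasome-bound deubiquitinases Usp14 and Uchl5 were at -0.79 ± 0.076 and -0.73 ± 0.061 for the transgene at DN4 (SE, limma adjusted p = 1.19e-06 and 3.39e-07), and Pomp, the maturation factor of the core, was at -0.43. Akirin2, which carries proteasomes into the nucleus, was the 1 gene higher, by 0.25. Of 5 ubiquitin shuttling genes 3 were lower at DN4 and 3 higher at DN2-3 in BDC cells, Rad23b with -0.46 and the segregase Vcp with 0.49 among them. Factors known to act on proteasome promoters went both ways at DN4, with 3 of 9 higher and 4 lower in BDC cells, shares near those of all genes. Among them Stat3 and the ETS factor Elk4 were higher by 0.61 and 0.43, and Nfe2l2 and Myc were lower, at -0.65 and -0.93. Nfe2l1, named here for the motif above, was higher by 0.42 ± 0.12 (SE, limma adjusted p = 0.00935).

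Cell division genes moved with the proteasome genes. Of 23 tested proliferation genes, 22 were lower in BDC than in non-Tg DN4 cells, with a median of -0.85, and 23 were higher at DN2-3, with a median of 0.56. Of all genes, 30.8% were lower at DN4 and 29.8% higher at DN2-3. With stage, 23 proliferation genes were lower in BDC cells and 21 higher in non-Tg cells, where 29.1% and 26.6% of all genes were. In BDC DN4 cells 23 were higher in NOD than in B6g7, with a median of 1.22, where 25.8% of all genes were higher. The cyclin Ccne2 was at -1.80 for the transgene at DN4, the spindle kinase Bub1 at -1.39, the thymidine kinase Tk1 at -1.34 and the licensing factor Cdc6 at -1.28. Their mean per array was 10.74 and 10.78 in BDC/NOD DN4 and 9.48 and 9.48 in BDC/B6g7 DN4, against 11.19 and 11.19 in NOD DN4 and 10.89 and 10.98 in B6g7 DN4. At DN2-3 it was 11.00 and 10.97 in BDC/NOD and 10.93 and 10.91 in BDC/B6g7, against 10.15 and 10.46 in NOD and 10.37 and 10.38 in B6g7. Cytosolic ribosomal protein genes moved less. For the transgene at DN4, 15 of 58 tested were lower and 1 higher, with a median of -0.11, where 30.8% and 28.7% of all genes were. The share of them lower was thus below that of all genes. At DN2-3, 33 were higher and 1 lower, with a median of 0.23, where 29.8% and 19.3% of all genes were. The part of cell division in the proteasome differences was not tested. The plot of both means shows each array once.

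**Figure D5:**
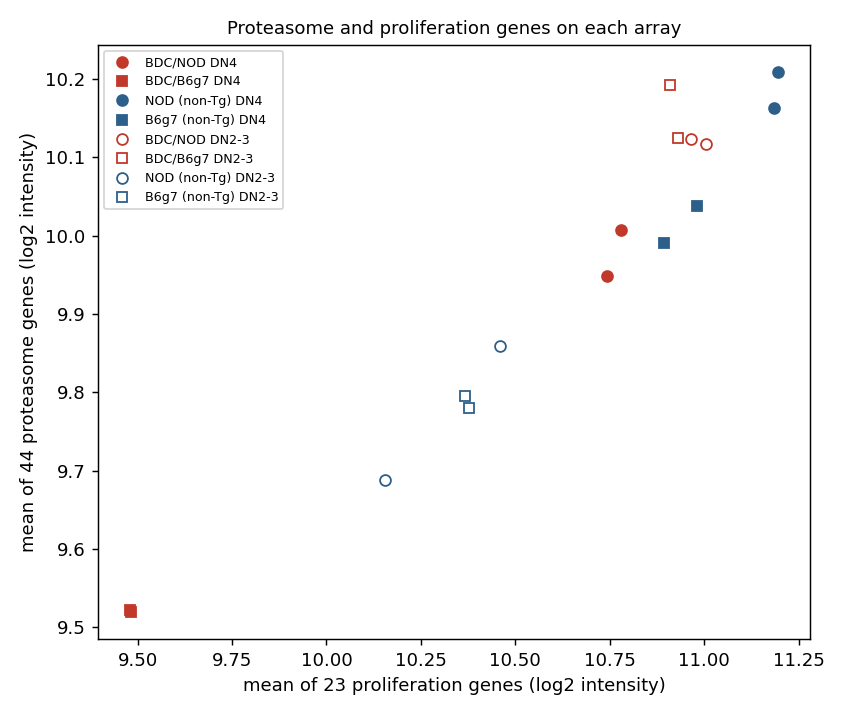
Mean log2 intensity of 23 proliferation genes (horizontal) and of the 44 proteasome genes (vertical) on each of the 16 arrays; filled points are DN4, open points DN2-3. Both BDC/B6g7 DN4 arrays lie alone at the lower left, at 9.48 and 9.52, and both NOD DN4 arrays at the upper right; all arrays share 1 normalization.

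Markers of other cells were mostly below the level of testing. The mean of 10 thymic stroma genes was 6.59 to 6.82 on BDC arrays and 6.71 to 6.82 on non-Tg arrays, with 5 of 10 reaching the test, and Foxn1 stayed at 6.01 to 6.51. Epcam, of epithelial cells, was at 6.71 to 8.28 and differed by -0.53 for the transgene at DN2-3, -0.52 for stage in BDC cells and -1.03 in non-Tg cells, all called lower. Cd74, of antigen-presenting cells, was at 5.98 to 7.22 and was called higher with stage, by 0.53 in BDC cells and 0.50 in non-Tg cells. The mean of 9 myeloid genes was 5.81 to 5.90 on BDC arrays and 5.84 to 6.17 on non-Tg arrays, with 2 of 9 reaching the test. Lyz2 was at 5.57 to 6.32 on BDC arrays, with non-Tg DN4 arrays in the same range, and at 7.40 to 8.08 on non-Tg DN2-3 arrays, Cd68 was at 7.69 to 8.88 over all arrays, and Csf1r at 5.41 to 5.97 on all. The mean of 5 B cell genes was 6.07 to 6.43 on BDC arrays and 6.14 to 6.45 on non-Tg arrays, where Cd79a stayed at 4.84 to 5.66 and Cd79b was at 8.59 to 9.69. The part of the Epcam, Cd74, Lyz2 and Cd79b differences in the proteasome values was not tested.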

How the data were processed

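RNA extracted with Trizol from sorted thymocytes was labelled with biotin and hybridised to Affymetrix Mouse Gene arrays, per the labels' protocols, and each of 8 groups had 2 arrays. The deposited values are linear intensity after RMA in Affymetrix Power Tools, per the submitters' processing notes; versions are not given in the sources used here. RMA scales arrays to each other, which can hide a change shared by most genes, yet the deposited arrays did not share one distribution: over probe sets with 1 symbol the ratio of the upper to the lower quartile ran from 6.64 on NOD DN2-3 replicate 1 to 10.1 on BDC/B6g7 DN2-3 replicate 1. Array medians ranged from 123.1 to 138.2, and precision is limited by how few arrays there are.

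Of 25108 probe sets, 21157 had 1 gene symbol in GEO's platform annotation, 1341 several and 2610 none. The probe set with the highest mean stood for each of 19531 genes, of which 52 probe sets with 1 symbol belonged to 46 members. Values were taken as log2 with no pseudocount. Testing was restricted to the 10689 genes with at least 1 group mean of 7.05 (132.9 on the linear scale) or more. That level is the median of all values of the probe sets with 1 symbol over the 16 arrays. The limma package (version 3.58.1, in R 4.3.3) was fitted to the 8 group means over 16 arrays, with 8 residual and 5.06 prior degrees of freedom, and two-sided p-values were adjusted by Benjamini-Hochberg over all 10689 genes. A gene was called at an adjusted p under 0.05. Averaged comparisons weight strains, genotypes and stages equally. Comparisons that read the same arrays along another factor share those arrays and are not independent.

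The members and the lists (immunoproteasome catalytic genes, other proteasome genes, ubiquitin and shuttling, proteasome transcription, proliferation, cytosolic ribosomal proteins, thymic stroma, myeloid, B cell and early T cell stage) were chosen with earlier results of these data known. Of 155 list entries 11 had no probe set of their own. Named were up to 5 called members in each direction per kind of gene by size, and any member called against its kind. From the lists only some genes were named, in part as markers and not strictly by size of change. The replicate number was not used as a block: of 28 pairs of groups, 12 had deviations correlated above 0.1. Among the 4 BDC groups, where the number is also the sex, all 6 pairs did, at 0.31 to 0.48, and sex as a term was an alternative. The fit was tested on simulated data. Alternatives covered the filter, the normalization, the probe sets, sex, array weights, the groups fitted and single arrays left out.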

Additional observations from a re-analysis of the deposited data

Results flagged for a closer look

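The interaction tests, which ask whether a difference itself differs between groups, called members in 6 of 7 cases by limma with Benjamini-Hochberg adjustment. The transgene difference (BDC minus non-Tg) changed between DN4 and DN2-3 for 41 of 44 members averaged over strains, for 30 in NOD and for 37 in B6g7. Of all genes, 31.5% had a lower term and 26.3% a higher one averaged over strains. The strain difference of the transgene effect at DN4 was called for 13 members, all less negative in NOD, where 9.2% of all genes were called in that direction. The strain difference of the stage effect was called for 21 members in BDC cells, all less negative in NOD, where 12.2% of all genes were called in that direction, and for 2, Psmb4 and Psmc4, in non-Tg cells. In non-Tg cells 7.33% of all genes were called higher and 1.71% lower, so the members' share was below that of all genes, and Psmc4 lay at the threshold. Psmb4 was at 9.49 and 10.26 on the NOD DN2-3 arrays, and the count of 2 was 1 without replicate 1 and 18 without replicate 2 of that group.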

How the results depend on the processing

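Of the 44 members, 31 were called for BDC minus non-Tg at DN4, 33 at DN2-3, 39 for DN4 minus DN2-3 in BDC, 34 in non-Tg and 26 for NOD minus B6g7. Of these calls 25, 19, 18, 24 and 11 held under every alternative but the minimum fold and the use of every probe set, which were run on counts alone, and no gene's called difference reversed. The causes were not tested. With a minimum fold of 1.5 the 5 counts were 6, 6, 7, 1 and 0. The shares of all genes called under the same alternatives are not set beside these counts, those above or those below. A changed count therefore does not tell whether the members or genes at large moved.

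With a minimum fold of 1.5 the strain difference gave 15 in BDC DN4, 1 in non-Tg DN4, 0 in BDC DN2-3 and 0 in non-Tg DN2-3 cells, in place of 32, 5, 2 and 2. The transgene difference gave 0 in NOD DN4, 16 in B6g7 DN4, 10 in NOD DN2-3 and 5 in B6g7 DN2-3, in place of 12, 30, 24 and 28. Stage gave 8 in NOD and 3 in B6g7 non-Tg cells, in place of 34 and 17, and strain by transgene at DN4 gave 5 in place of 13.

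Leaving out the 4 male arrays left each BDC group with a lone array, assumed to vary like the others, and gave 19 for BDC minus non-Tg at DN2-3, 18 for stage in BDC and 11 for strain. By single pairs it gave 15 for strain in BDC DN4, 0 in non-Tg DN4, 0 in BDC DN2-3 and 0 in non-Tg DN2-3. It gave 0 for the transgene in NOD DN4, 2 in NOD DN2-3 and 7 in B6g7 DN2-3, 20 for stage in NOD non-Tg cells and 23 in B6g7 BDC cells. Among interactions it gave 2 for strain by transgene at DN4, 2 for transgene by stage in NOD, and 0 for strain by stage in both genotypes. With sex as a term the transgene gave 7 in NOD DN4, strain 1 in non-Tg DN2-3 and 1 in non-Tg DN4, and strain by stage 0 in non-Tg cells.

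Array weights, which were 0.178 for NOD DN2-3 and 0.671 to 1.98 for the other groups, gave 0 for strain in non-Tg DN2-3, 9 in non-Tg DN4, 7 for the transgene in NOD DN2-3, 24 in NOD DN4, 15 for stage in NOD BDC, 9 in NOD non-Tg, and 33 and 0 for strain by stage in BDC and non-Tg cells. A fit of only the groups compared, which have few arrays, gave 0 for strain in non-Tg DN2-3, 0 for the transgene in NOD DN2-3, 20 in NOD DN4, 11 for stage in NOD BDC, 0 in NOD non-Tg, and 33 and 0 for strain by stage in BDC and non-Tg cells.

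With no filter, the counts were 0 for strain in non-Tg DN2-3, 1 in non-Tg DN4, 6 for the transgene in NOD DN4, 6 for strain by transgene at DN4 and 1 for strain by stage in non-Tg. A filter at an intensity of 120 gave 3 for strain in non-Tg DN4 and 1 for strain by stage in non-Tg, and so did the use of every probe set, with 3 and 1. Quantile normalization again gave 0 for strain in BDC DN2-3, 2 in non-Tg DN4, 1 for stage in NOD BDC, 22 in NOD non-Tg and 1 for strain by stage in non-Tg. Centring each array on its median gave 0 for strain in non-Tg DN2-3, 12 in non-Tg DN4, 5 for strain by transgene at DN4 and 6 for strain by stage in non-Tg. Moderation with a trend and robust gave 9 for strain in non-Tg DN4. With the replicate number as a block the 5 averaged counts were 31, 34, 39, 34 and 24, and strain by stage in non-Tg gave 4. By number, deviations correlated at 0.31 to 0.48 in all 6 pairs of BDC groups, where the number is also the sex, and at 0.58 between NOD DN2-3 and NOD DN4, but not in most other pairs.

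The all-gene median of NOD minus B6g7 in non-Tg DN4 was 0.13, 0.016 after quantile normalization and 0.20 after centring. That of stage in NOD non-Tg was 0.097, with 0.020 and 0.20, and that of strain by stage in non-Tg was 0.16, with 0.026 and 0.27. The share of all called genes that were higher was 71.4% after centring, beside 60.6%, for BDC minus non-Tg at DN2-3, 72.3% beside 60.5% in NOD alone and 68.3% beside 57.4% in B6g7 alone. For strain it was 34.9% after centring, beside 47.3%, in non-Tg DN2-3, 54.2% after quantile normalization and 87.2% after centring, beside 74.7%, in non-Tg DN4, and 52.2% after quantile normalization, beside 62.8%, in BDC DN4. For stage in NOD non-Tg it was 54.4% and 81.3%, beside 68.1%. For strain by transgene at DN4 it was 32.6% after centring, beside 45.7%, and for strain by stage 63.1% and 93.6%, beside 81.1%, in non-Tg and 57.9% after quantile normalization, beside 77.5%, in BDC cells.

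With single arrays left out, the strain counts ranged over 0 to 18 in non-Tg DN4, 0 to 2 in BDC DN2-3 and 0 to 14 in non-Tg DN2-3. Transgene counts ranged over 2 to 20 in NOD DN4, 12 to 29 in NOD DN2-3 and 11 to 32 in B6g7 DN2-3. Stage counts ranged over 0 to 4 in NOD BDC and 22 to 35 in NOD non-Tg. Strain by transgene ranged over 4 to 18 at DN4 and 0 to 10 at DN2-3, and strain by stage over 12 to 33 in BDC and 0 to 18 in non-Tg cells. The 5 averaged counts ranged over 28 to 35, 31 to 35, 33 to 42, 26 to 39 and 20 to 34.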

Other observations

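Of the 9 genes known to act on proteasome transcription, the ones called varied between comparisons. In BDC DN4 cells, Myc, a growth regulator, had 10.47 and 10.57 in BDC/NOD, against 9.37 and 9.41 in BDC/B6g7, and was higher in NOD by 1.13 ± 0.22 (SE, limma with Benjamini-Hochberg adjustment, adjusted p = 0.00104). On the other 12 arrays Myc lay between 10.57 and 11.51, so its level in BDC/B6g7 DN4 cells was the lowest of the study. Nfyb, a subunit of the CCAAT box factor, was higher in NOD in the same cells by 0.71 ± 0.091 (SE). Stat3, Ngly1 and Elk4 were lower there in NOD, at -0.40, -0.37 and -0.33. With stage, Myc fell by 0.82 in BDC cells, where Elk4 and Stat3 rose by 0.31 and 0.21. In non-Tg cells Stat3 fell by 0.64 and Myc by 0.42 with stage, while Nfyb rose by 0.41.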
